A study of Homo sapiens with 7 samples.

Results

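The 40 genes described here encode extracellular and lysosomal proteases and the proteins that hold them in check. They comprise 12 matrix metalloproteinases, 7 ADAMs and 2 ADAMTS proteases, the urokinase plasminogen activator and its receptor, 2 serine proteases of the plasma membrane, 6 cathepsins and 8 inhibitors or related serpins, together with HPSE, which cuts heparan sulfate and is a glycosidase, not a protease. All 40 were found among the 19775 genes that had a probe set annotated to one symbol alone, and 99 of the 54613 probe sets read them. Each gene is given at the probe set with its highest average signal, and further probe sets are described for some genes.

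Panc1 is an established cell line from a human pancreatic carcinoma, and its RNA was measured on 7 Affymetrix arrays. The S100P arm held 4 arrays of cells stably carrying pcDNA3.1/S100P-V5-His, 2 of clone 5 and 2 of clone 1. The vector arm held 3 arrays of cells carrying pcDNA3.1/V5-His without an insert, 1 of clone V1 and 2 of clone V3. All 4 clones share the Panc1 background and the plasmid backbone, and each grew from a single cell, so a clone stands for 1 transfected cell and an arm for 2 clones. The letters a and b tell arrays of the same clone apart. S100P is a small calcium-binding protein, and the study sought genes that it regulates.

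Values are log2 expression as deposited, so that a difference of 1 is a 2-fold change. A gene was called where limma's adjusted p, over all probe sets, was under 0.05. The level of one gene cannot be set against that of another, because probe brightness differs. RNA came from whole cultures, where fewer cells of a type and less RNA per cell cannot be told apart.

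S100P itself did not separate the arms: its 1 probe set read 5.36 and 5.45 on clone 5 and 5.80 and 5.95 on clone 1, against 4.65 on V1 and 5.65 and 6.01 on V3 (exact two-sided permutation p = 0.714 over arrays, where 0.0286 is the smallest possible). Whether that probe set reads the transgene is not known here, so each arm is named as labelled. Across probe sets, arrays of one clone correlated at 0.996 to 0.998 and arrays of different clones at 0.982 to 0.995. Of 9 markers of pancreatic cancer epithelium, 7 were at least 6 on every array, among them KRT8, KRT18, KRT19 and EPCAM. CDH1 was 7.36 to 7.79 on the S100P arrays, 3.83 on V1 and 6.17 and 6.36 on V3. SOX9 also lay higher on all S100P arrays, at 11.16 to 11.39 against 9.96 to 10.68 on the vector arrays. KRT7 went the other way, at 5.94 to 6.54 against 6.91 to 7.35. KRT8, KRT18 and KRT19 averaged lower in the S100P arm, with overlapping arms. EPCAM, MUC1 and CLDN4 overlapped as well. The summed level of the 9 markers, as log2, was 13.69 to 14.42 on the S100P arrays and 14.22 to 14.72 on the vector arrays. All 4 measured acinar markers and all 6 of leukocytes stayed below 6 on every array, as did 6 of 7 fibroblast and 5 of 6 endothelial markers. Of 5 mesenchymal markers, 3 were at least 6 on every array, and CDH2 was 6.61 and 6.39 in clone 5 and 8.33 to 8.68 on the other arrays. The part of these markers in the results was not tested. No marker of these lists was called between the arms.

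Matrix metalloproteinases are zinc enzymes made as inactive precursors that cleave collagens, laminins and other matrix proteins, and tissue inhibitors of metalloproteinases (TIMPs) block them by binding the active site. Urokinase, bound to its receptor on the cell surface, turns plasminogen into plasmin, a broad serine protease that also activates several metalloproteinases. ADAM proteases cut membrane proteins just outside the cell, and cathepsins work chiefly in lysosomes but can be secreted by tumour cells. In pancreatic ductal cancer MMP7 and urokinase are among the proteases known to be abundant.

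The promoter sequences of 4 genes are shown for genes that the results describe at length. CTSC had the largest difference between the arms, the cathepsin genes CTSH and CTSZ differed between the vector clones, and RECK, a membrane-anchored inhibitor of metalloproteinases, differed in size between its probe sets. They are RefSeq sequences of build GRCh38.p14, of 300 bases around the annotated transcription start, written 5′ to 3′ on the strand of the gene. Capitals mark the GC box (GGGCGG on either strand), a site bound by SP-family factors. It occurred in 15786 of all 35116 promoter windows of this length.
CTSC (chr11:88337687-88337986, minus strand): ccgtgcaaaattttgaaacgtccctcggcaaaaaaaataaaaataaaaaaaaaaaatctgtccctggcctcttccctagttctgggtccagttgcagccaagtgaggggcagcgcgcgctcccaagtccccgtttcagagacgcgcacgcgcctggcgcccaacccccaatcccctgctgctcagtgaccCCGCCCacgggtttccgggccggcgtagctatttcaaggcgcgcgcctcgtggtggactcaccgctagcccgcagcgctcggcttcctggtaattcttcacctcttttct
CTSH (chr15:78944997-78945296, minus strand): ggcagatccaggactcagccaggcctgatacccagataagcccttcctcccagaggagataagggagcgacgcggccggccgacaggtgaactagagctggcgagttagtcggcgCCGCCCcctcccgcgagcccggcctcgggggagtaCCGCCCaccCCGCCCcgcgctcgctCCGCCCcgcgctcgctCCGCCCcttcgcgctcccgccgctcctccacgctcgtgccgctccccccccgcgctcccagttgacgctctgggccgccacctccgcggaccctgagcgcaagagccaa
CTSZ (chr20:59007205-59007504, minus strand): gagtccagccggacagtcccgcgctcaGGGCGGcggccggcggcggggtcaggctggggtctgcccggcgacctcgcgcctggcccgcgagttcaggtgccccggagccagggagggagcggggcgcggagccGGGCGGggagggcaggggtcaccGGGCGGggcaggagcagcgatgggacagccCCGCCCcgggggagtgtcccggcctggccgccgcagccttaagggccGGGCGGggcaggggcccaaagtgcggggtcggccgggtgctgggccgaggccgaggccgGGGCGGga
RECK (chr9:36036663-36036962, plus strand): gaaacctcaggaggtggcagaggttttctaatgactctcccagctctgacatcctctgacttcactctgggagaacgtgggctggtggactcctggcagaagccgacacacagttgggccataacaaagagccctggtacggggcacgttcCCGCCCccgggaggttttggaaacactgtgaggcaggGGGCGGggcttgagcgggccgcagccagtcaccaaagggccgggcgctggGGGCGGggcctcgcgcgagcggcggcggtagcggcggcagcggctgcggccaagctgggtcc
CTSC held 1 GC box, CTSH 5, CTSZ 6 and RECK 3. The windows were matched by symbol for 26 of the 40 genes, as 30 windows since PLAU, SERPINE2 and HPSE have more than one, and 24 of these 30 held a GC box. The median G and C content was 67.3% in the 30 windows and 58.7% in all 35116. The core of the element found at many lysosomal genes, TCACGTGA, was searched on both strands and occurred in 0 of the 30 windows and in 0.98% of all windows, which says only that these letters are not there.

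A further 5 genes held the AP-1 motif TGANTCA, which is searched on both strands and well known from metalloproteinase promoters. No window was matched for MMP1, MMP2, MMP3, MMP9, MMP13 or MMP16, so these were not searched. The motif occurred in 5 of the 30 windows and in 7.71% of all windows. The 60 bases around it are shown with the motif in capitals, since AP-1 is the best known element of inducible metalloproteinase promoters.
MMP7 (chr11:102530781-102530840, minus strand): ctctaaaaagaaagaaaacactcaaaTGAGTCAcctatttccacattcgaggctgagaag
MMP10 (chr11:102780662-102780721, minus strand): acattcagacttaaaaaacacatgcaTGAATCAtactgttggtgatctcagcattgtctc
PLAUR (chr19:43670322-43670381, minus strand): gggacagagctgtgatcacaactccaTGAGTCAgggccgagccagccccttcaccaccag
TFPI2 (chr7:93890807-93890866, minus strand): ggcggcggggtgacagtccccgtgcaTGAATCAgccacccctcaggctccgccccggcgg
SERPINB5 (chr18:63476786-63476845, plus strand): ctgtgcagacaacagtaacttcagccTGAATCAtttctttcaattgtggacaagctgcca
In MMP7 and MMP10 the motif began 67 bases before the start, at -67 in both. It began at -186 in PLAUR, -87 in TFPI2 and -146 in SERPINB5. MMP7 and MMP10 were also the only ones of the 30 windows with TATAAA on the strand of the gene, which 7.33% of all windows held. A match is a description of the letters and not evidence of binding.

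No protease or inhibitor gene of the 40 was called by limma between the S100P arm and the vector arm, while 1.55% of all 19775 genes were (307 genes). None of their 99 probe sets was called either, beside 1.12% of all probe sets. At an unadjusted p under 0.05 there were 7 of the 40, beside 15.1% of all genes. Of the 7, 3 lay higher in the S100P arm and 4 lower, beside 9.56% and 5.5% of all genes. The median log2 difference was -0.01 over the 40 and 0.00 over all genes, and the median size of the difference was 0.11 and 0.12. The 40 were divided evenly by sign, 20 higher and 20 lower. For 29 of the 40 the 95% interval of the difference lay within a 1.5-fold change either way, and for 35 within 2-fold. The same held for 75.2% and 92.9% of all genes. On every array 16 of the 40 read at least 6 and 20 read below 6, beside 8909 and 9456 of all 19775 genes. Below the median of every array lay 11 of the 40, beside 6324 of all genes. The same value on 2 or more arrays was found in 23 of the 40 and in 9602 of all genes.

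**Figure D1:**
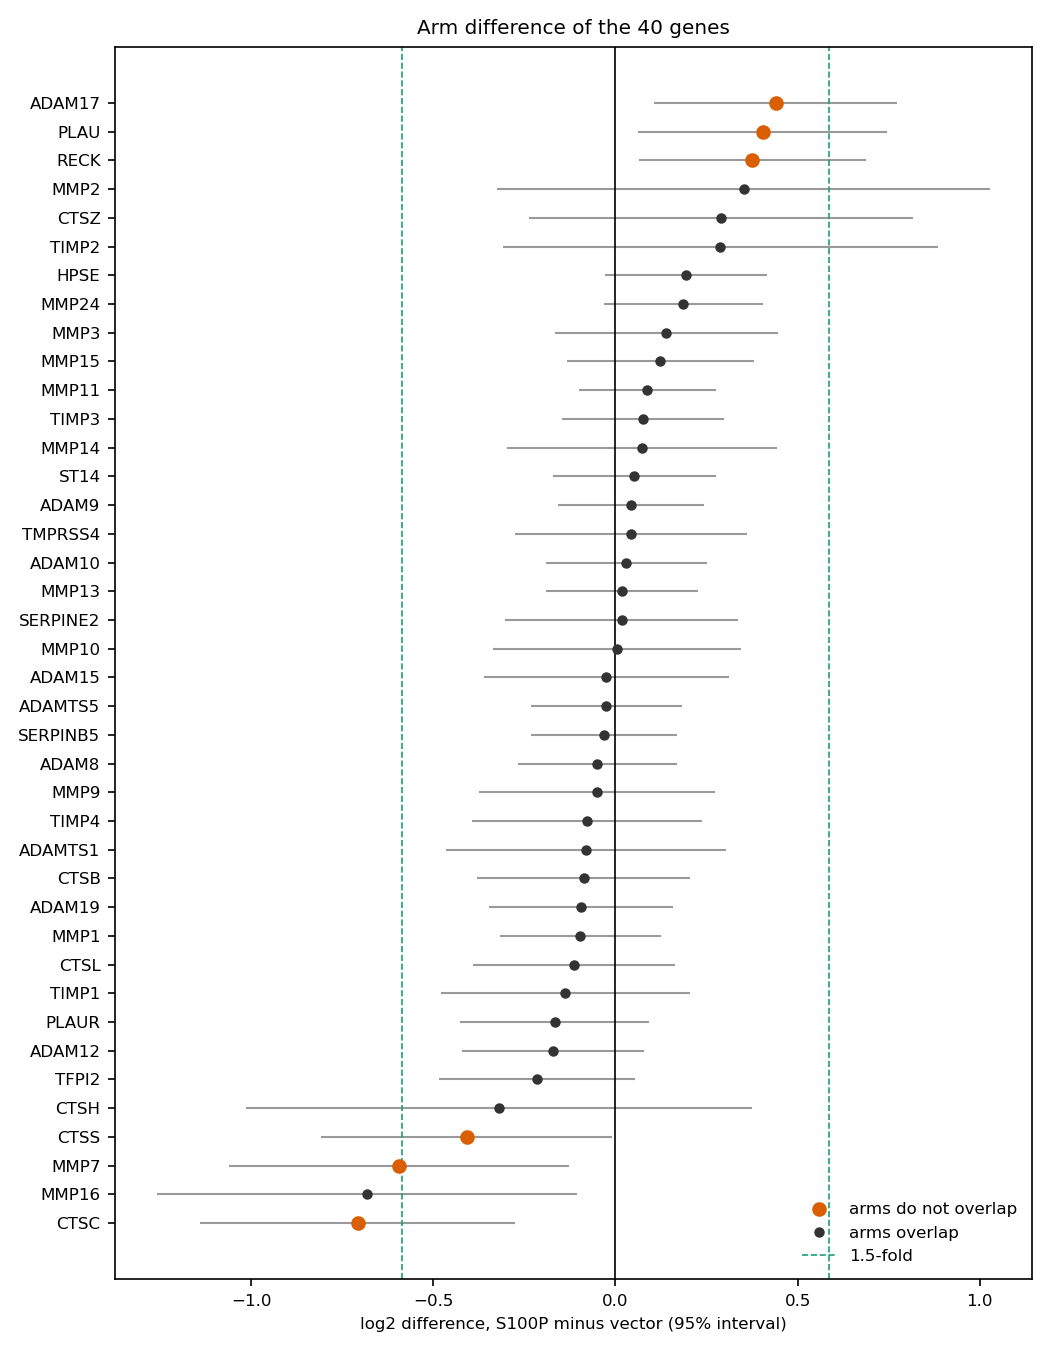
Log2 difference of each of the 40 genes, S100P minus vector, on the horizontal axis with its 95% interval from limma, genes sorted down the page. Orange points are the 6 genes whose S100P and vector arrays did not overlap, and dashed lines mark 1.5-fold. The points run between -0.71 for CTSC and 0.44 for ADAM17, and most intervals cross 0.

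In 6 of the 40 genes the 4 S100P arrays did not overlap with the 3 vector arrays, against 14.2% of all genes. ADAM17, PLAU and RECK lay higher in the S100P arm, and CTSC, MMP7 and CTSS lower, beside 8.67% higher and 5.51% lower of all genes. None of the 6 was called. Their values stand with their families.

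The largest arm difference of the 40 was that of CTSC, a dipeptidyl peptidase that activates serine proteases of leukocyte granules. It read 8.06 and 8.29 in clone 5 and 8.27 and 8.26 in clone 1, against 9.31 in V1 and 8.52 and 8.83 in V3. All S100P arrays lay below all vector arrays, and V1 was the highest of the 7. The log2 difference was -0.71 (SE 0.19, limma adjusted p = 0.155), a 1.63-fold lower level with an interval of -1.14 to -0.28. The other 3 CTSC probe sets had log2 differences of -0.83, -1.04 and -0.33, the last of them dim and with overlapping arms, with limma adjusted p of 0.0575, 0.0543 and 0.466. When the median over the probe sets of each gene was fitted in place of the brightest, CTSC was called (log2 difference -0.91, limma adjusted p = 0.0337). It was also called without clone V3 (-1.09, limma adjusted p = 0.0323). Without V1, its highest array, the difference was -0.46 and not called.

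Among the other cathepsins, CTSS, an elastinolytic enzyme of antigen-presenting cells, read 4.43 and 4.01 in clone 5 and 4.06 and 4.44 in clone 1, against 4.85 in V1 and 4.51 and 4.52 in V3. Its S100P arrays all lay lower, with a log2 difference of -0.41 (SE 0.18, limma adjusted p = 0.408), and its values were near the median of each array. CTSB, CTSL, CTSH and CTSZ, enzymes of general protein breakdown in lysosomes, overlapped between the arms. Their differences were -0.09 (SE 0.13) for CTSB, -0.11 (SE 0.12) for CTSL, -0.32 (SE 0.30) for CTSH and 0.29 (SE 0.23) for CTSZ, with limma adjusted p of 0.735 to 0.883. CTSB read 10.73 to 10.87 on the S100P arrays, against 10.63 to 11.11 on the vector arrays. CTSL averaged 8.69 ± 0.13 on the S100P arrays (SD, n = 4) and 8.82 ± 0.16 on the vector arrays (SD, n = 3). Both were measured closely enough that their intervals, -0.38 to 0.20 and -0.39 to 0.16, stayed within 1.5-fold. Those of CTSH and CTSZ reached -1.02 and 0.82, and both genes differed between the vector clones.

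CTSH, an aminopeptidase, was 2.40-fold lower in V1 than in V3. It read 8.44 on V1 and 9.68 and 9.72 on V3, a log2 difference of -1.27 (SE 0.11, limma adjusted p = 0.00230). The S100P clones lay between, at 8.95 and 9.05 in clone 5 and 8.78 and 8.75 in clone 1. CTSZ, a carboxypeptidase, was 1.88-fold lower in V1, with 6.31 on V1 and 7.10 and 7.34 on V3, a log2 difference of -0.91 (SE 0.14, limma adjusted p = 0.0138). Here the S100P clones sat with V3, at 7.25 and 7.11 in clone 5 and 7.11 and 7.16 in clone 1. The direction of CTSH between the arms turned on which vector clone was kept: it was -0.82 without V1, where it was called (limma adjusted p = 0.0101), and 0.45 without clone V3. CTSZ differed by 0.84 without clone V3, where it was called (limma adjusted p = 0.0318), and by -0.07 without V1. At its second probe set CTSZ did not show the difference between the vector clones, with 6.22 on V1 and 5.96 and 5.95 on V3.

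MMP2, the gelatinase that cuts type IV collagen of basement membranes, was the third of the 40 called between the vector clones. It was 2.30-fold lower in V1, with 7.64 on V1 and 8.85 and 8.84 on V3, a log2 difference of -1.20 (SE 0.12, limma adjusted p = 0.00364). The S100P arrays read 8.83 and 8.90 in clone 5 and 8.50 and 8.66 in clone 1 and lay near V3. Between the arms MMP2 differed by 0.35 (SE 0.30, limma adjusted p = 0.755). As with CTSH and CTSZ, the direction turned on the vector clone kept: it was -0.12 without V1 and 1.09 without clone V3, not called in either case. The other 2 MMP2 probe sets read between 2.72 and 4.40 and were not called.

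**Figure D2:**
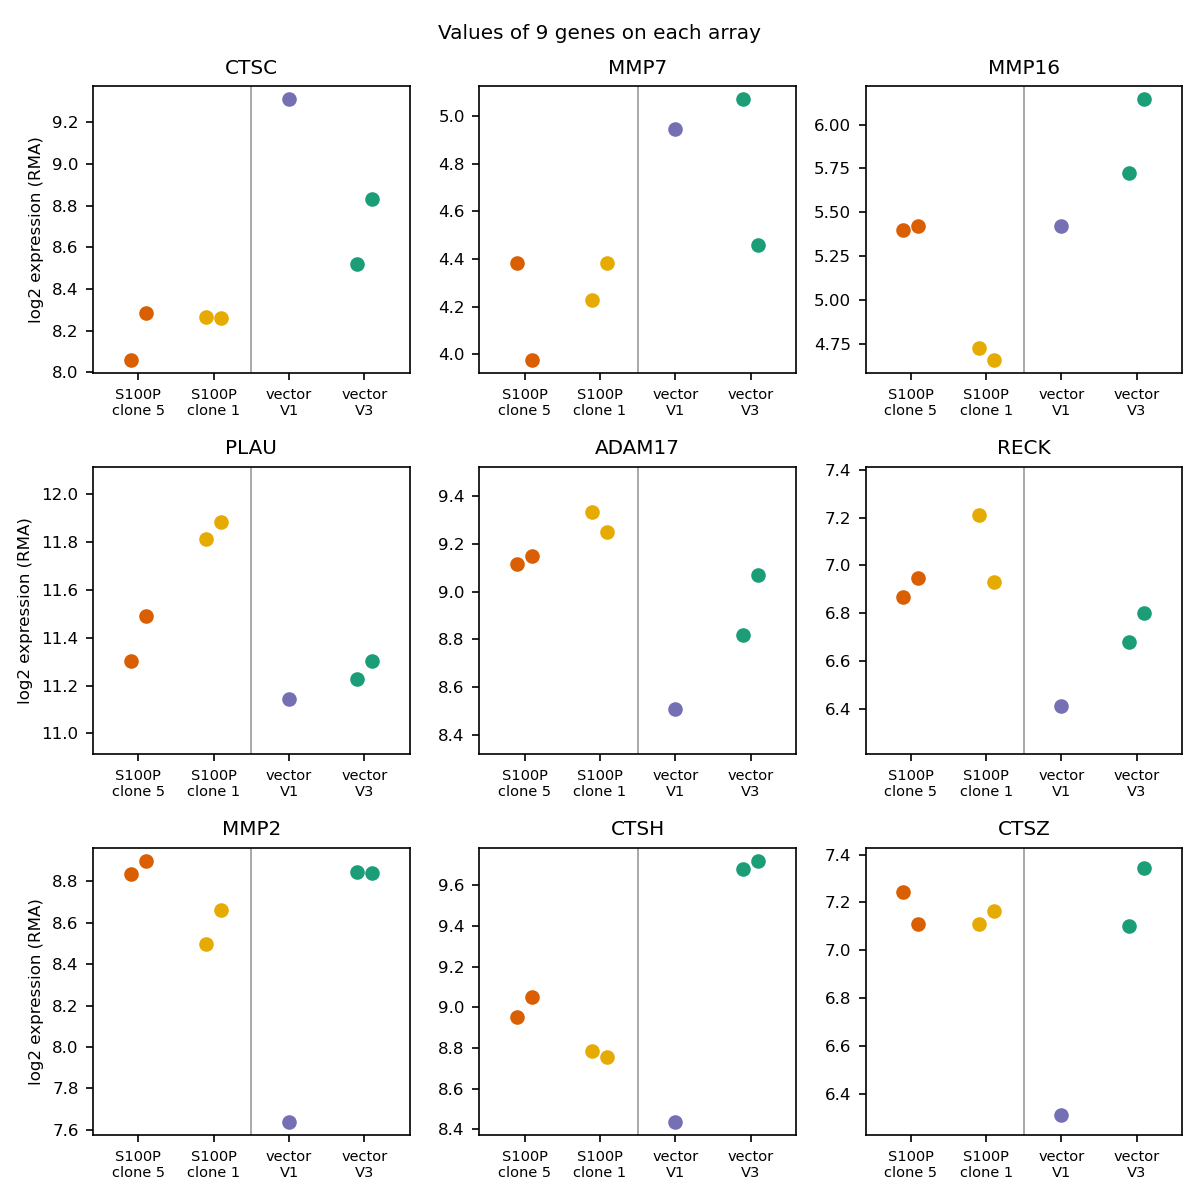
Log2 expression of 9 genes on each array, by clone, with the S100P clones left of the grey line and the vector clones right of it. Every point is 1 array and each panel has its own vertical axis. CTSC lies lower on all 4 S100P arrays, PLAU and MMP16 set clone 1 apart, and MMP2, CTSH and CTSZ are lowest on V1.

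Of the other secreted metalloproteinases, MMP7 (matrilysin) lay lower on all S100P arrays. It read 4.38 and 3.98 in clone 5 and 4.23 and 4.38 in clone 1, against 4.95 in V1 and 5.07 and 4.46 in V3. The log2 difference was -0.59 (SE 0.20, limma adjusted p = 0.285), and arrays a and b of V3 themselves differed by 0.61, as much as the arms. MMP3 (stromelysin) read 2.91 and 2.86 in clone 5 and 3.05 and 2.91 in clone 1, against 2.91 in V1 and 2.91 and 2.53 in V3, with overlapping arms and a difference of 0.14 (SE 0.13, limma adjusted p = 0.795). The collagenase MMP1 and the collagenase MMP13, the stromelysin MMP10, the gelatinase MMP9 and the stromelysin-like MMP11 had differences between -0.10 and 0.09, with limma adjusted p of 0.791 or more and overlapping arms. MMP1 averaged 2.92 ± 0.11 on the S100P arrays (SD, n = 4) and 3.01 ± 0.03 on the vector arrays (SD, n = 3). MMP13 read 3.41 to 3.57 on the S100P arrays, against 3.45 to 3.57 on the vector arrays. MMP10 read 2.70 to 3.21 on the S100P arrays, against 2.76 to 3.08 on the vector arrays. These collagenases and this stromelysin are often induced in inflamed tissue. MMP9 read 4.04 to 4.35 on the S100P arrays, against 4.16 to 4.55 on the vector arrays. MMP11 read 5.93 to 6.02 on the S100P arrays, against 5.83 to 5.93 on the vector arrays. MMP1, MMP3, MMP9, MMP10 and MMP13 stayed below the median of every array throughout. At that brightness low expression and no expression were not told apart here. Of the genes with an AP-1 motif shown above, MMP7 was the one whose arms did not overlap, beside 14.2% of all genes. None was called between arms or clones as fitted, beside 1.55% of all genes between the arms and 3.02% to 17.5% between clones. So few genes allow no reading about the motif. TFPI2 was called lower in clone 1 than in the vector clones when the fit had an intensity trend (-0.31, limma adjusted p = 0.0476).

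Among the membrane-type metalloproteinases, MMP16 set S100P clone 1 apart. It read 5.40 and 5.42 in clone 5 and 4.73 and 4.66 in clone 1, against 5.42 in V1 and 5.72 and 6.15 in V3. Both arrays of clone 1 were below all 5 others, while clone 5 lay beside V1. Clone 5 minus clone 1 gave 0.72 (SE 0.14, limma adjusted p = 0.0554), and the arms differed by -0.68 (SE 0.25, limma adjusted p = 0.328). Under the alternatives the arm difference lay between -1.08, without clone 5, and -0.36, with the median over probe sets, and was never called. MMP16 was 1.98-fold lower in clone 1 than in the mean of the vector clones, a log2 difference of -0.98 (SE 0.13, limma adjusted p = 0.00352). Of its other 4 probe sets, 1 dim one was also called lower in clone 1, at -0.52 (SE 0.10, limma adjusted p = 0.0160). The other 3 were not called there, with log2 differences of -0.03, -0.18 and -0.31. In clone 5 the comparison with the vector clones gave, at the brightest probe set, -0.27 (SE 0.13, limma adjusted p = 0.319). MMP14, which activates MMP2 on the cell surface, read 6.89 and 6.55 (clone 5) and 6.47 and 6.66 (clone 1), against 6.37 (V1) and 6.84 and 6.55 (V3). Its arms overlapped, with a difference of 0.07 (SE 0.16, limma adjusted p = 0.931). V1 was the lowest array there and the highest at the other 3 MMP14 probe sets, whose differences were -0.28, -0.16 and -0.13, none called. MMP24 read 5.78 and 5.73 (clone 5) and 5.76 and 5.83 (clone 1), against 5.53 (V1) and 5.73 and 5.52 (V3). MMP15 read 5.74 and 6.04 (clone 5) and 5.87 and 5.89 (clone 1), against 5.70 (V1) and 5.87 and 5.74 (V3). Both overlapped between the arms, MMP24 with a difference of 0.19 (SE 0.10, limma adjusted p = 0.511) and MMP15 with 0.12 (SE 0.11, limma adjusted p = 0.782).

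Of the ADAM proteases, ADAM17, the sheddase of tumour necrosis factor and of ligands of the epidermal growth factor receptor, lay higher on all S100P arrays. It read 9.12 and 9.15 in clone 5 and 9.33 and 9.25 in clone 1, against 8.51 in V1 and 8.82 and 9.07 in V3. The log2 difference was 0.44 (SE 0.15, limma adjusted p = 0.265), 1.36-fold higher. V1 was the lowest of the 7 arrays, and without clone V3 the gene was called (0.70, limma adjusted p = 0.0493), while without V1 the difference was 0.27 and not called. The arms overlapped at both other ADAM17 probe sets, one of which was 1.81-fold lower in V1 than in V3 (limma adjusted p = 0.0142). ADAM10, the other main sheddase, and ADAM9, which also sheds growth factors, overlapped between the arms. ADAM10 read 10.53 and 10.48 (clone 5) and 10.57 and 10.54 (clone 1), against 10.36 (V1) and 10.53 and 10.65 (V3), a difference of 0.03 (SE 0.10) with an interval of -0.19 to 0.25. ADAM9 read 10.10 to 10.29 on the S100P arrays, against 10.11 to 10.13 on the vector arrays. It differed by 0.04 (SE 0.09) with an interval of -0.16 to 0.24. ADAM8, ADAM12, ADAM15 and ADAM19 differed by -0.05, -0.17, -0.02 and -0.10, with limma adjusted p of 0.634 to 0.976, and the arms overlapped in each. ADAM8 read 4.87 to 5.13 on the S100P arrays, against 5.05 to 5.09 on the vector arrays. ADAM15 read 6.87 to 7.28 on the S100P arrays, against 6.90 to 7.34 on the vector arrays. ADAM12, a metalloprotease of mesenchymal cells and carcinomas, read 5.05 and 5.05 (clone 5) and 4.99 and 4.95 (clone 1), against 5.39 (V1) and 5.05 and 5.05 (V3), highest on V1. ADAM19 had the same value on all 3 vector arrays, 5.38, and 5.06 to 5.41 on the S100P arrays. The secreted ADAMTS1 and ADAMTS5, which cut proteoglycans such as aggrecan, were dim. ADAMTS1 read 3.57 and 3.87 (clone 5) and 3.95 and 4.04 (clone 1), against 3.77 (V1) and 3.87 and 4.23 (V3). ADAMTS5 averaged 2.99 ± 0.09 on the S100P arrays (SD, n = 4) and 3.01 ± 0.03 on the vector arrays (SD, n = 3). Both overlapped between the arms, with differences of -0.08 (SE 0.17, limma adjusted p = 0.925) and -0.03 (SE 0.09, limma adjusted p = 0.957).

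In the urokinase system, PLAU was bright on every array and highest in S100P clone 1. It read 11.30 and 11.49 in clone 5 and 11.81 and 11.88 in clone 1, against 11.15 in V1 and 11.23 and 11.30 in V3. Clone 5 array a lay only just above V3 array b, so the arms were barely separate. The arm difference was 0.40 (SE 0.15, limma adjusted p = 0.326). It was 0.62 without clone 5, where PLAU was called (limma adjusted p = 0.0281), and 0.16 without clone 1. In both of those fits the within-clone correlation came out negative. Arrays of one clone then count as more than independent, so that call is uncertain. Clone 1 was 1.56-fold higher than the mean of the vector clones at a log2 difference of 0.64 (SE 0.09, limma adjusted p = 0.00516), and clone 5 differed from it by 0.19 (SE 0.09, limma adjusted p = 0.317). The arms overlapped at the other PLAU probe set. PLAUR, the urokinase receptor, read 6.60 and 6.88 (clone 5) and 6.85 and 6.65 (clone 1), against 6.86 (V1) and 6.94 and 6.96 (V3). Its arms overlapped, with a difference of -0.17 (SE 0.11, limma adjusted p = 0.666).

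Of the membrane serine proteases ST14 (matriptase) and TMPRSS4, neither separated the arms. ST14 read 5.88 and 5.91 (clone 5) and 5.86 and 5.91 (clone 1), against 5.91 (V1) and 5.67 and 5.91 (V3), a difference of 0.05 (SE 0.10, limma adjusted p = 0.916). TMPRSS4 read 4.90 and 4.56 (clone 5) and 4.56 and 4.41 (clone 1), against 4.60 (V1) and 4.63 and 4.46 (V3), a difference of 0.04 (SE 0.14, limma adjusted p = 0.955), with clone 5 array a the highest. HPSE, the heparanase, read 4.33 and 4.30 (clone 5) and 4.44 and 4.42 (clone 1), against 4.16 (V1) and 4.30 and 4.08 (V3), and its difference was 0.19 (SE 0.10, limma adjusted p = 0.502). The highest vector array and the lowest S100P array had the same value.

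Among the metalloproteinase inhibitors, RECK lay higher on all S100P arrays. It read 6.87 and 6.95 in clone 5 and 7.21 and 6.93 in clone 1, against 6.41 in V1 and 6.68 and 6.80 in V3. The log2 difference was 0.38 (SE 0.14, limma adjusted p = 0.316), 1.30-fold higher. It was 0.24 without clone 1 and 0.57 without clone V3, not called in either case. Its probe sets disagreed on the size. Another RECK probe set read 7.06 and 6.91 in clone 5 and 6.95 and 6.88 in clone 1, against 4.98 in V1 and 6.50 and 6.53 in V3. There V1 lay far below the other 6 arrays and was 2.89-fold lower than V3 (limma adjusted p = 0.00169). The arm difference at that probe set was 1.03 (SE 0.36, limma adjusted p = 0.289), not called, although clones 5 and 1 each differed from the mean of the vector clones, by 1.24 (SE 0.09, limma adjusted p = 0.000697) and 1.16 (SE 0.09, limma adjusted p = 0.000413). At a further probe set, of a design that can also read related transcripts, the arms overlapped and the difference was 0.04 (SE 0.10). The brightest probe set, which gave 0.38, is likewise of a design that can read other transcripts.

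**Figure D3:**
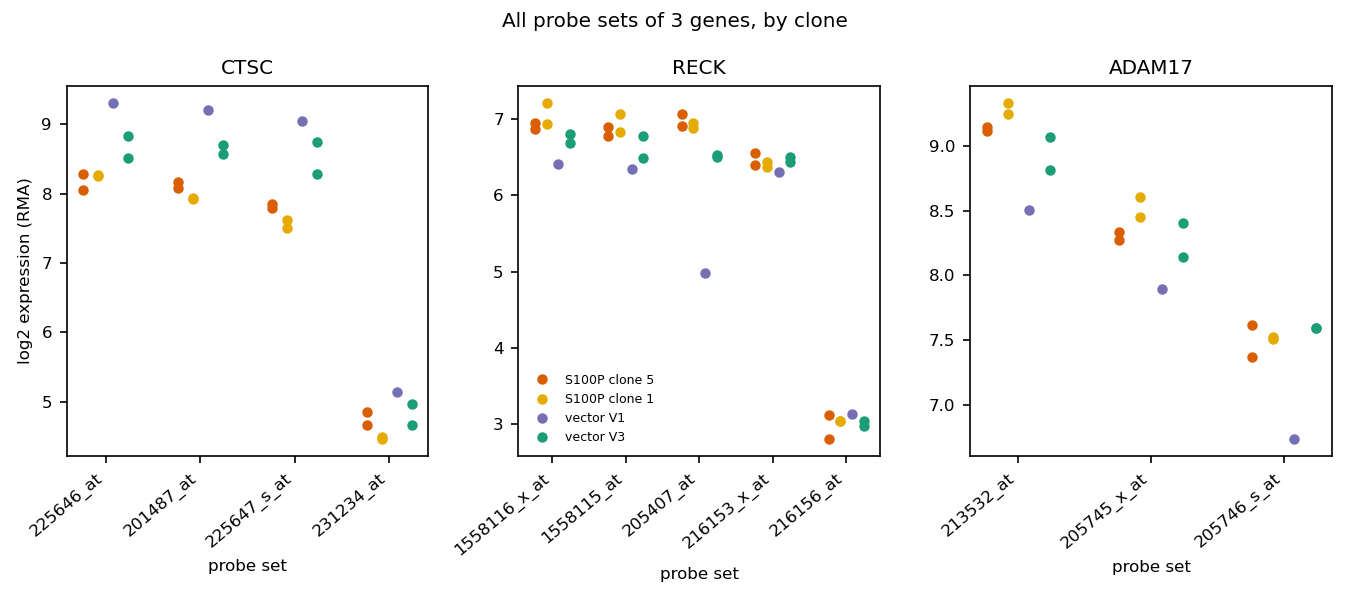
Log2 expression at every probe set of CTSC, RECK and ADAM17, one point per array, coloured by clone and offset left to right as S100P clone 5, S100P clone 1, vector V1 and vector V3. All CTSC probe sets are highest on V1, and V1 is far below the other arrays at the third RECK and the third ADAM17 probe set from the left.

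TIMP2, which both inhibits MMP2 and takes part in its activation by MMP14, varied from clone to clone. It read 9.23 and 9.64 in clone 5 and 9.93 and 10.04 in clone 1, against 8.97 in V1 and 9.60 and 9.83 in V3. Clone 1 was highest and V1 lowest, and the arms overlapped, with a difference of 0.29 (SE 0.26, limma adjusted p = 0.780). That difference was -0.11 without clone 1 and 0.74 without clone V3, not called in either case. The fit without clone 1 gave V3 more than its share of weight, so its negative sign is not read as a reversal. Clone 1 was 1.56-fold above the mean of the vector clones at a log2 difference of 0.64 (SE 0.14, limma adjusted p = 0.0270), while clone 5 differed by 0.09 (SE 0.14, limma adjusted p = 0.789). TIMP1, the inhibitor with growth-promoting activity, read 10.55 and 10.76 (clone 5) and 10.72 and 10.79 (clone 1), against 11.13 (V1) and 10.57 and 10.76 (V3). V1 was highest and the arms overlapped, with a difference of -0.14 (SE 0.15, limma adjusted p = 0.828). TIMP3, bound to matrix, read 6.02 to 6.20 on the S100P arrays, against 5.92 to 6.13 on the vector arrays, a difference of 0.08 (SE 0.10). TIMP4 read 3.16 to 3.19 on the S100P arrays, against 2.96 to 3.42 on the vector arrays, a difference of -0.08 (SE 0.14). Of the 3 serine protease inhibitors, TFPI2, which blocks plasmin, was highest on V1, at 3.39. The S100P arrays averaged 2.95 ± 0.08 (SD, n = 4) and the vector arrays 3.14 ± 0.21 (SD, n = 3), and the lowest was clone 1 array b, at 2.84. Its difference was -0.22 (SE 0.12, limma adjusted p = 0.553), at levels below the median of every array. SERPINE2 (protease nexin), which blocks thrombin and urokinase, averaged 4.73 ± 0.22 on the S100P arrays (SD, n = 4) and 4.71 ± 0.03 on the vector arrays (SD, n = 3), a difference of 0.02 (SE 0.14, limma adjusted p = 0.983). SERPINB5 (maspin), a serpin without known protease-blocking activity, read 3.23 and 3.17 (clone 5) and 3.17 and 3.08 (clone 1), against 3.28 (V1) and 3.17 and 3.11 (V3), a difference of -0.03 (SE 0.09, limma adjusted p = 0.946). In SERPINE2 clone 5 array a was the highest, at 5.03, and the arms overlapped in both.

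**Figure D4:**
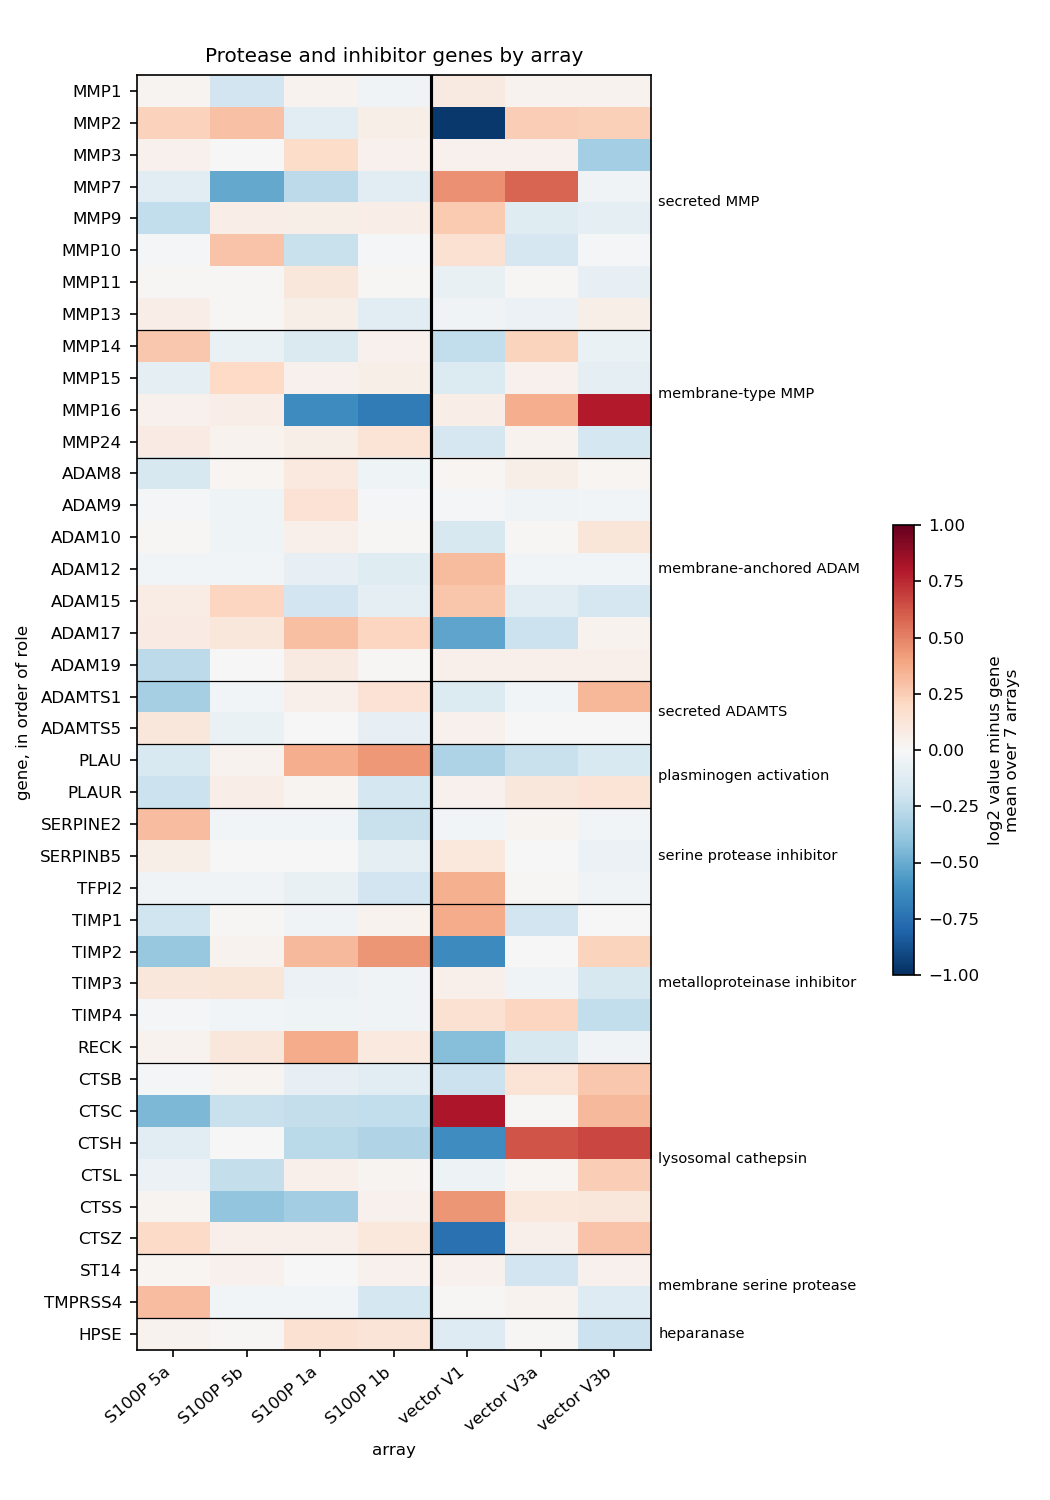
Log2 value of each of the 40 genes minus its own mean over the 7 arrays, as colour, with genes in order of role down the page and S100P arrays left of the black line. The strongest colours lie on single clones: V1 is low in MMP2, CTSH and CTSZ and high in CTSC, clone 1 is low in MMP16, and V3 is high in MMP16 and CTSH.

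Of the 40 genes, 3 differed between clones of one arm. Between V1 and V3, MMP2, CTSH and CTSZ were called, all lower in V1, beside 7.72% of all genes in either direction and 5.08% lower. Between clones 5 and 1 none of the 40 was called, beside 3.02% of all genes. There 6 of the 40 had an unadjusted p under 0.05, beside 3587 of all 19775 genes. The median size of the difference over the 40 was 0.10 for clone 5 minus clone 1 and 0.19 for V1 minus V3, against 0.12 and 0.16 over all genes. MMP2 and CTSH were still called between V1 and V3 without either array of clone 5, and were not called without an array of clone 1 or V3, while CTSZ was not called with any of these arrays left out. Over all alternatives the log2 difference of MMP2 stayed between -1.21 and -1.20, that of CTSH between -1.28 and -1.25, and that of CTSZ between -1.03 and -0.79. V1 lay below the 6 other arrays in 11 of the 40 genes and above them in 9, beside 20.6% and 23.3% of all genes. V1 is 1 array with another label prefix than the rest, so its clone and any separate handling cannot be told apart. It also had the lowest difference between the 3' and 5' ends of ACTB, 0.18 against 0.28 and 0.32 on V3. That difference was 0.29 and 0.27 on clone 5 and highest on clone 1, at 0.53 and 0.44. Its part in these results was not tested for any clone.

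**Figure D5:**
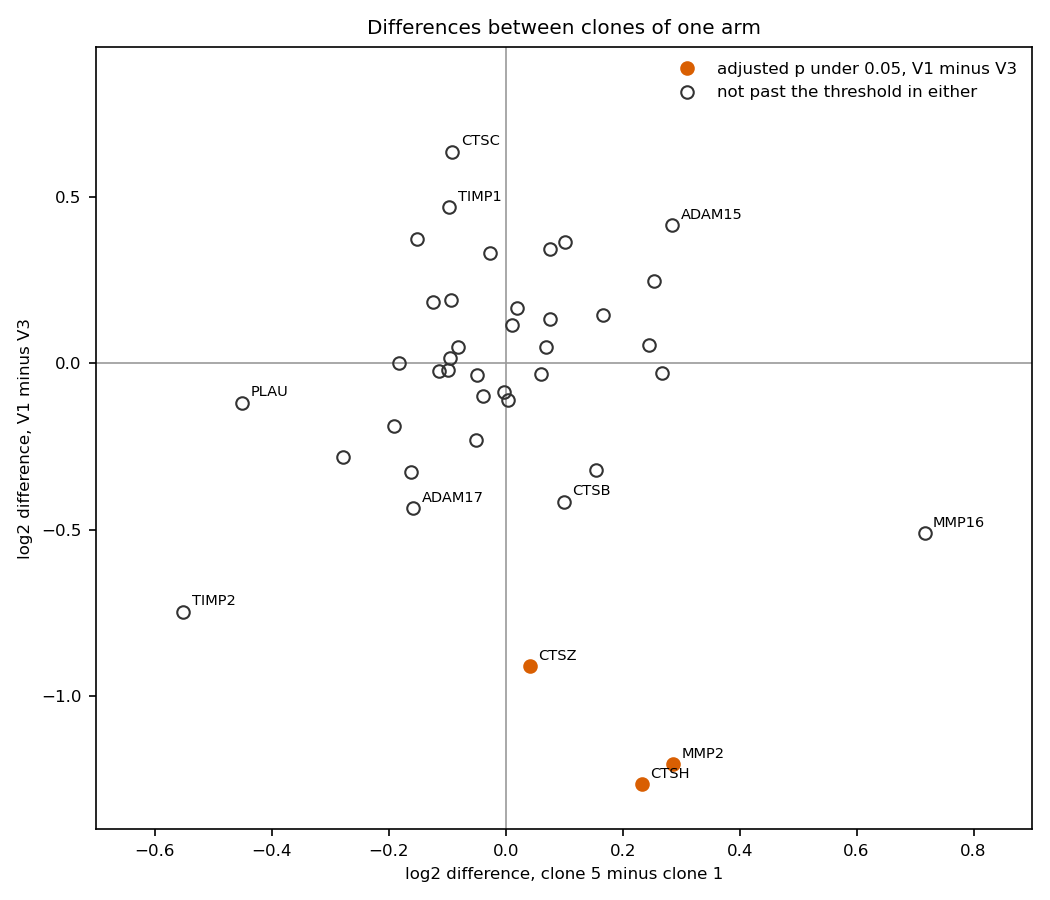
Log2 difference between the vector clones (V1 minus V3, vertical axis) against that between the S100P clones (clone 5 minus clone 1, horizontal axis) for the 40 genes. MMP2, CTSH and CTSZ, filled, are the ones called between V1 and V3. MMP16 lies farthest to the right, at 0.72, and TIMP2 farthest to the left, at -0.55.

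Compared with the vector clones' mean, S100P clone 1 differed at 6 of the 40 genes, with 17.5% of all genes called, 11.7% higher and 5.75% lower. PLAU, ADAM17, TIMP2 and RECK were higher, ADAM17 with a log2 difference of 0.57 (SE 0.10, limma adjusted p = 0.0122) and RECK with 0.49 (SE 0.11, limma adjusted p = 0.0282), and CTSC and MMP16 were lower. Clone 5 differed at 2, with 8.59% of all genes called, 5.65% higher and 2.94% lower. MMP2 was higher, with a log2 difference of 0.63 (SE 0.09, limma adjusted p = 0.00960). Its values in clone 5, 8.83 and 8.90, stood beside 7.64 in V1 and 8.85 and 8.84 in V3, so that clone 5 differed from V1 and not visibly from V3. CTSC was lower, with a log2 difference of -0.82 (SE 0.12, limma adjusted p = 0.0112). CTSC in clone 1 had a log2 difference of -0.73 (SE 0.12, limma adjusted p = 0.00919). Both comparisons use the same vector arrays, so their values are not independent of each other. They compare single clones, with the spread between arrays of one clone. With 1 array left out, 0 to 4 of the 40 were called in clone 1 and 0 to 1 in clone 5.

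Beyond the 40, a list of 129 other proteases, inhibitors and matrix modifiers was examined, of which 120 had a probe set of their own. Of these, 0 were called higher and 2 lower in the S100P arm, beside 1.55% of all genes called, a share close to theirs. The aminopeptidase ANPEP (CD13) read 8.93 and 9.12 in clone 5 and 8.51 and 8.54 in clone 1, against 10.26 in V1 and 9.90 and 10.06 in V3, and was 2.48-fold lower, a log2 difference of -1.31 (SE 0.17, limma adjusted p = 0.0144). The arms did not overlap. Its other 2 probe sets were very dim, at 2.81 to 3.11 and 2.82 to 2.99, so the median over its probe sets, which gave 0.01, took a dim one. CTSV, a cathepsin close to CTSL, read 9.43 and 9.29 in clone 5 and 9.13 and 9.18 in clone 1, against 9.82 in V1 and 10.04 and 10.22 in V3. It was 1.68-fold lower in the S100P arm, a log2 difference of -0.75 (SE 0.13, limma adjusted p = 0.0374), with no overlap. It lay lower in the S100P arm under all 16 alternatives and was called under 6, while ANPEP was called under 11 of 16. Between the vector clones 7 of the 120 were lower in V1 and 1 was higher, beside 7.72% of all genes called and 5.08% called lower. The largest was SPINT1, an inhibitor of matriptase, 4.78-fold lower in V1, with 7.01 on V1 and 9.11 and 9.42 on V3 (limma adjusted p = 0.00138). The serine protease TMPRSS2 was 3.01-fold lower, SERPINA3 2.30-fold, and SERPINI1, SPARC, LGMN and TFPI 1.45-fold to 1.88-fold lower, while ADAMTS13 was 1.40-fold higher. Between the S100P clones 2 of the 120 were lower in clone 5 and 1 was higher, beside 3.02% of all genes called, a share close to theirs. CSTA (cystatin A) was 2.06-fold lower in clone 5 (limma adjusted p = 0.00454) and SERPINB9 1.53-fold lower, while SPARC was 1.63-fold higher.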

How the data were processed

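Total RNA of 4 Panc1 clones was hybridised to 7 Affymetrix HG-U133 Plus 2.0 arrays. The deposited table holds log2 expression values made by the authors with RMA, per the submitters' processing notes. Its version is not given in the sources used here, nor is whether RMA was run on all arrays at once. The log2 scale is not stated and was inferred from the values, which run from 1.79 to 14.36. Probe sets were named through the platform annotation: of 54613 tested, 41091 had 1 symbol, 1801 several and 11721 none, and 62 control probe sets were left out.

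The arms were compared with limma 3.58.1 in R 4.3.3 on all 54613 probe sets, with clone as a random block. Benjamini-Hochberg adjustment ran over all probe sets. The within-clone correlation was 0.29 on all 7 arrays and was estimated anew in each alternative that kept the block. Clones were compared in a second limma fit with 1 term per clone, which left 3 residual degrees of freedom, all from arrays of clones 1, 5 and V3. V1 is assumed to vary like them. Whether the arrays of one clone hold separate cultures is not stated in the labels. The p-values therefore reflect the spread of these 7 arrays alone, which may be technical, and so few arrays limit the precision. Detection calls were not used here. The fits were tested on simulated data.

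Members, gene lists and tests were chosen with earlier results of these data known. All 40 genes are accounted for by role. Those past the threshold between arms or between clones of one arm, or otherwise up to 3 per role with the largest arm difference, have their values per array. From the wider list, genes past the threshold in the arm comparison and up to 8 in each comparison within an arm are named. Alternatives were the clone block, clone means, quantile normalization, a filter on dim probe sets, an intensity trend, the median over probe sets, and leaving out each array or clone. Promoters are from RefSeq, with 250 bases before and 50 after each start.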

Additional observations from a re-analysis of the deposited data

Results flagged for a closer look

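In 4 of the 40 genes, 1 of the 4 S100P arrays stood apart from the other 3 by Dixon's test at the 95% level. Chance gives such a result in about 1 of 20 groups of independent, normally distributed values. These arrays are pairs from clones 5 and 1, and some values are tied, so that rate need not hold here. CTSC was lowest on clone 5 array a, at 8.06, which is on the side away from the vector arrays. MMP9 was lowest on clone 5 array a as well, at 4.04. MMP11 was highest on clone 1 array a, at 6.02, where the other 3 arrays had the same value. ADAM9 was also highest on clone 1 array a, at 10.29.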

How the results depend on the processing

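Probe sets called between the S100P and vector arms numbered 611, against 1103 with no clone block, 8 with clone means, 394 among probe sets reaching 6 on some array, 1355 without clone 5, 1675 without clone V3 and 159 to 1708 with 1 array left out, highest without V1. None of the 40 genes was called, against 1 without V1 (CTSH), 1 without clone 5 (PLAU), 3 without clone V3 (ADAM17, CTSC, CTSZ) and 1 with the median over probe sets (CTSC), so 0 to 1 with 1 array left out. Their other alternatives gave 0, and 35 of the 40 were called under none. Leaving out clone V1 is leaving out its 1 array. The within-clone correlation was negative in the fits without clone 5 and without clone 1. There V3 weighed more than its share of the vector arrays, so the differences and the call of PLAU from those fits are uncertain. The median difference of the 40 moved by less than the spread between arrays throughout. For clone 5 minus clone 1, 1195 probe sets were called, against 2916 with the filter on dim probe sets and 0 to 1195 with 1 array left out. Members called there were 0, against 1 with quantile normalization, 3 with the filter and 1 with an intensity trend. For V1 minus V3, 3195 were called, against 5172 with the filter and 0 to 909 with 1 array left out. Members called there were 3, against 6 with quantile normalization, 10 with the filter and 0 to 2 with 1 array left out. Against the vector clones, 6 members in clone 1 became 8 with quantile normalization and 9 with the filter or an intensity trend. They became 0 to 4 with 1 array left out. The 2 in clone 5 became 3 with quantile normalization or an intensity trend and 5 with the filter. They became 0 to 1 with 1 array left out. Leaving out an array lowers the residual degrees of freedom, except for V1 in the fit with 1 term per clone. The filter tests fewer probe sets. It drops the 34749 of 54613 that read below 6 on every array, among them those of 20 of the 40 genes. The cause of the other changes was not tested. ANPEP had a log2 difference of 0.011 with the median over its probe sets, where its 2 other probe sets are very dim, against -1.31 at its brightest. No paired analysis was possible because the letters a and b name arrays of one clone, V1 has none, and they do not pair samples across arms.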
